A study of Mus musculus with 2 samples.

Results

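The genes described here encode the proteins that carry retinoids within cells and the nuclear receptors that read retinoic acid. They are Crabp1 and Crabp2 (cellular retinoic acid binding proteins), Stra6 (the membrane receptor for retinol bound to its plasma carrier), Rara, Rarb and Rarg (retinoic acid receptors, RARs) and Rxra, Rxrb and Rxrg (retinoid X receptors, RXRs). The 9 genes were chosen by symbol, under a rule that sets no threshold on their values, from 42462 named genes, and together they had 51 annotated transcripts in the deposited tables. Sequencing covered RNA of more than 200 nt from the facial prominences of healthy B6NCrl mouse embryos at embryonic day 10.5, male and female embryos together. The only group held 2 libraries of 10 ng RNA each, replicate 1 from a pool of 69 embryos and replicate 2 from a pool of 51. No mutant, treatment or second tissue was included, so the values below are levels within 1 tissue and differences between 2 pools.

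Retinoic acid is made inside cells from retinol by successive oxidation steps and is removed by enzymes of the CYP26 family. In the nucleus an RAR paired with an RXR sits on a response element, usually a direct repeat of a short hexamer, where it holds corepressors without ligand and recruits coactivators with it. CRABP proteins bind retinoic acid in the cytoplasm and pass it to breakdown enzymes or to the nucleus. In the embryonic face, both too little and too much retinoic acid are known to disturb growth and fusion of the prominences, and neural crest derived mesenchyme is a known site of Crabp1 and Rarg expression.

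The expected counts, which estimate the reads belonging to each gene, summed to 40059176 over the genes of replicate 1 and to 39531700 over those of replicate 2. All 10 listed markers of facial mesenchyme were detected, with summed levels of 796 and 745 TPM (transcript abundance scaled for length and library total), as were all 6 markers of surface ectoderm. Markers of other tissues were present too. All 7 neuronal, all 6 endothelial and all 6 erythroid markers were detected, and none of 5 heart markers. Here and below, detected means 1 TPM or more in each of the 2 libraries.

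The sequences that separate the measured forms are shown first. The coding starts of the binding protein genes are given because Crabp1 and Crabp2 are near relatives whose reads have to be told apart, with the start codon in capitals, from GENCODE M21 transcripts (GRCm38):
Crabp1: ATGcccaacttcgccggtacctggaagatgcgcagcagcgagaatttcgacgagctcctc
Crabp2: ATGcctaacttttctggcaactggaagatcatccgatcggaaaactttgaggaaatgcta
Over the aligned coding sequences 71.7% of bases were identical, and the longest exact run shared by the transcripts was 11 bases. Within the RAR genes coding identity ran from 73.9% to 77.9%, with shared runs of 17 to 24 bases, and within the RXR genes from 74.4% to 76.3%, with runs of 20 to 29 bases. How long the reads were is not given in the sources used here.

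Rara, Rarg and Rxrg each have alternative starts that change the first part of the protein ahead of a shared remainder. The junctions are shown because the coding forms whose shares are given below part there. The transcripts can also differ outside the coding sequence, and Rara-204 and Rara-202 end at different positions (98974162 and 98974942). Capitals mark bases of that form only and lower case the start of the shared coding sequence:
Rara-204: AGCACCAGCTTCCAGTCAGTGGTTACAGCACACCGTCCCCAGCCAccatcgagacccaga
Rara-202: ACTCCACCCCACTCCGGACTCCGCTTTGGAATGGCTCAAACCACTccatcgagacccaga
Rarg-201: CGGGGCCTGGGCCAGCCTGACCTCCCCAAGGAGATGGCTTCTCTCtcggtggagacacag
Rarg-202: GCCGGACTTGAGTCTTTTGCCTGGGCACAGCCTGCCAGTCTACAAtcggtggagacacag
Rxrg-201: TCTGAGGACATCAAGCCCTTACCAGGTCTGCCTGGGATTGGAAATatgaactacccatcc
Rxrg-202: atgaactacccatcc
The Rara forms had 178 and 169 coding bases of their own ahead of 1208 shared ones, and the Rarg forms 183 and 150 ahead of 1191. Rxrg-201 carried 369 further coding bases, and the whole coding sequence of Rxrg-202 was the shared 1020 bases. Rxrb-201 likewise carried 330 further coding bases at its start, ahead of 886 shared with Rxrb-202. Rxrb-201 and Rxrb-202 also differed inside the coding sequence, where Rxrb-201 held 12 further bases, in capitals:
Rxrb-201: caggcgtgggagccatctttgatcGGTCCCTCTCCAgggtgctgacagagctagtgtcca
Rxrb-202: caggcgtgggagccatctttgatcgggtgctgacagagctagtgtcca

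The promoter of Rarb is shown because it was the only member window with a direct repeat of the searched hexamers. Windows of 300 bases, from 250 before to 50 after each RefSeq start (GRCm38.p6), were available for 8 of the 9 genes, all but Crabp2. They were searched on both strands for a pair of hexamers in the same direction, spaced by 1, 2 or 5 bases. Each hexamer could be AGGTCA, the common form, or a variant of it, namely AGTTCA, or else GGGTCA, or finally GGTTCA. A repeat spaced by 5 bases lay in 1 of the 8 member genes and in 31 of all 27025 genes (0.115%). Repeats spaced by 1 or 2 bases lay in none of the 8, and in 0.263% and 0.311% of all genes. The Rarb match, at bases -53 to -37 from the RefSeq start, lay on the minus strand like the gene, at chr14:16575506-16575535 with its flanks, and capitals mark the repeat with its spacer:
Rarb: gggaagGGTTCACCGAAAGTTCActcgcat
The M21 start of Rarb-201 lay 14 bases upstream of the match, so the repeat was inside that transcript model. A match is a string of letters, and no binding was measured.

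All 9 genes were detected, against 33.2% of all named genes and 58.2% of protein coding genes. The median of their mean levels was 33.9 TPM, beside 20.1 TPM for detected protein coding genes, and 7 of the 9 lay above that value. From highest to lowest the order was Crabp1, Crabp2, Rarg, Rxrb, Stra6, Rara, Rarb, Rxra and Rxrg, a range from 1219 to 3.2 TPM.

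**Figure D1:**
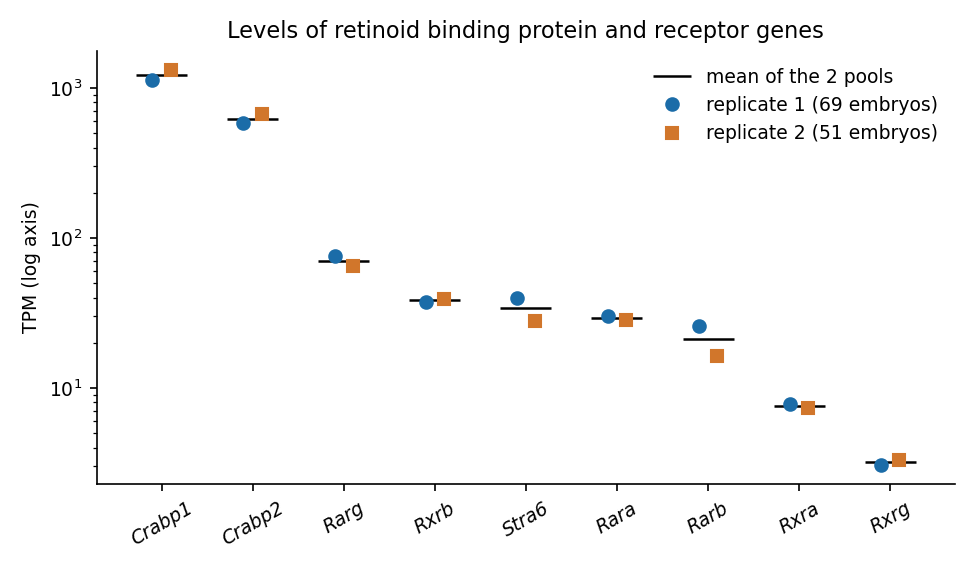
Level of each gene in TPM on a log axis, with a blue circle for replicate 1, an orange square for replicate 2 and a bar at their mean. The lowest value of Crabp2, 579.77 TPM, lay above the highest of the 7 genes that follow, 75.16 TPM for Rarg, and the pools lay farthest apart for Rarb and Stra6.

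Crabp1 (ENSMUSG00000032291, chr9:54764748-54773110, plus strand) stood at 1132.61 TPM in replicate 1 and 1305.03 in replicate 2, with 21103 and 24178 expected counts. This placed it 61st among protein coding genes by mean level (1219 ± 122 TPM, SD, n = 2). Crabp2 (ENSMUSG00000004885, chr3:87948666-87953376, plus strand) stood at 579.77 and 668.46 TPM (624 ± 62.7, SD, n = 2), rank 182. Both binding protein genes were higher in replicate 2, and the values of Crabp2 did not reach those of Crabp1 in either pool. Crabp1 exceeded Crabp2 by 0.97 on the log2(TPM + 0.1) scale in each library, and its share of the summed CRABP level was 66.1% in each. The interval of the mean difference ran from 0.84 to 1.09, using the replicate spread pooled over the 200 genes nearest in level to each gene.

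Among 15 genes of intracellular lipid-binding proteins, the family that CRABPs belong to, Crabp1 and Crabp2 were highest. Their summed share of the family's TPM was 74.1% in replicate 1 and 76.7% in replicate 2. Next came Fabp5, a fatty acid binding protein gene, at 425.17 and 434 TPM, and then Fabp7, a marker of neural progenitors, at 105.56 and 107.45 TPM. Fabp3 stood at 12.69 and 12.53 TPM. The remaining 9 genes were not detected, and 5 of them had no count in either library.

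Stra6 (ENSMUSG00000032327, chr9:58063788-58153996, plus strand), which lets retinol into cells, was measured at 39.81 TPM in replicate 1 and 28.07 in replicate 2 (33.9 ± 8.3, SD, n = 2). Its level was lower in replicate 2, with 1925 expected counts against 2627. The values of Stra6 lay on either side of those of Rxrb and Rara, so its place in the order depended on the pool. Rxrb minus Stra6 was -0.09 in replicate 1 and 0.48 in replicate 2 (mean 0.20, interval -0.04 to 0.44), and Stra6 minus Rara was 0.40 and -0.01 (mean 0.20, interval -0.03 to 0.43). These were the neighbours in the order that did not differ beyond the replicate spread. With the deposited posterior mean TPM, the Stra6 minus Rara interval left out 0 (mean 0.23).

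Rarg (ENSMUSG00000001288, chr15:102234938-102257517, minus strand) was the highest receptor gene, at 75.16 TPM in replicate 1 and 64.45 in replicate 2 (69.8 ± 7.57, SD, n = 2). Rara (ENSMUSG00000037992, chr11:98927818-98974942, plus strand) was nearly level between the pools, at 30.08 and 28.21 TPM. Rarb (ENSMUSG00000017491, chr14:16430839-16819156, minus strand), a gene known to respond to retinoic acid, stood at 25.83 and 16.24 TPM. Every value of Rarg was above every value of Rara, and every value of Rara above every value of Rarb. Rarg was 2.38-fold above Rara (interval 2.13 to 2.67) and 3.39-fold above Rarb (2.98 to 3.85). Rara was 1.42-fold above Rarb (1.24 to 1.62), with log2 differences of 0.22 in replicate 1 and 0.79 in replicate 2, which both fell outside the interval of the mean. Taken from replicate 1 alone, the interval of Rara minus Rarb held 0.

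The level of Rarb has a limit that the others lack. Top2b, a DNA topoisomerase gene on the opposite strand, ends in the same place: its exons in GENCODE M21 covered 1793 of the 3108 bases of Rarb-201 (57.7%), 558 of them coding. In the deposited tables Top2b-201 was 5660 bases long, against 10335 in M21, and its coordinates in that older annotation were not used here. The sources used here do not say whether read strand entered the counting. Reads of Top2b RNA could therefore be included in the Rarb value, which was not tested. Top2b stood at 77.69 and 70.65 TPM, a log2 ratio of -0.1 between the pools, where Rarb had -0.64. No other member shared exon bases with another gene in M21.

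Rxrb (ENSMUSG00000039656, chr17:34031812-34038399, plus strand) was the leading RXR gene, with 37.48 TPM in replicate 1 and 39.32 in replicate 2 (38.4 ± 1.3, SD, n = 2). Rxra (ENSMUSG00000015846, chr2:27676440-27762957, plus strand) stood at 7.86 and 7.36 TPM. Rxrg (ENSMUSG00000015843, chr1:167598384-167639623, plus strand) was the lowest of the 9, with 3.08 and 3.32 TPM and only 154 and 160 expected counts. The pools lay close together for each RXR gene, and the values of no RXR gene overlapped those of another. Rxrb was 4.99-fold above Rxra (interval 3.93 to 6.36) and 11.7-fold above Rxrg (8.32 to 16.4), and Rxra was 2.34-fold above Rxrg (1.58 to 3.46).

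**Figure D2:**
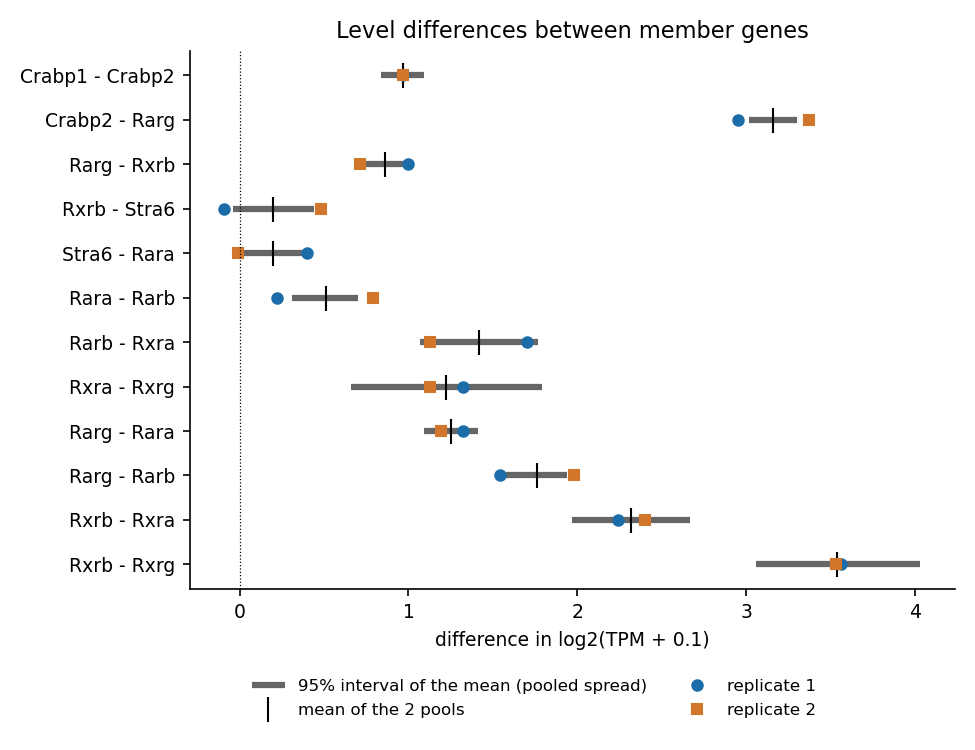
Differences in log2(TPM + 0.1) between pairs of genes, with the mean (tick), its 95% interval from the pooled replicate spread (grey bar), replicate 1 (circle) and replicate 2 (square). Of 12 pairs, 10 differed with the same sign in both libraries, and the exceptions were Rxrb minus Stra6 and Stra6 minus Rara.

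The intervals use the spread of genes of like level, not that of the pair itself. For 4 of the 12 pairs (Crabp2 and Rarg, Rxrb and Stra6, Rara and Rarb, Rarg and Rarb) both libraries lay outside the interval, so the pooled spread was narrower than the spread of these pairs. The step from Crabp2 to Rarg was the largest between neighbours, 8.93-fold, with log2 differences of 2.95 and 3.37.

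Summed over genes, RAR transcripts came to 131 TPM in replicate 1 and 109 in replicate 2, and RXR transcripts to 48.4 and 50 TPM. The RAR sum exceeded the RXR sum 2.71-fold and 2.18-fold (2.44 ± 0.374, SD, n = 2). With Rarb left out of the sum, a calculation added after the overlap with Top2b was seen, the mean ratio was 2.01. Rarg made up 57.3% and 59.2% of the RAR sum, Rara 22.9% and 25.9%, and Rarb 19.7% and 14.9%. Rxrb made up 77.4% and 78.6% of the RXR sum, Rxra 16.2% and 14.7%, and Rxrg 6.36% and 6.64%. The CRABP sum was 13.1 times the RAR sum in replicate 1 and 18.1 times in replicate 2. These are ratios of transcripts and not of proteins.

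The 6 receptor genes were placed among 48 listed nuclear receptor genes, of which 22 were detected. RARs and RXRs held 36.8% of the summed TPM of these 48 genes in replicate 1 and 33.3% in replicate 2. Rarg had the highest mean, and it ranked first in replicate 1 and second in replicate 2, below the orphan receptor gene Nr2f6 (53.58 and 65.09 TPM). Nr1h2, which encodes the oxysterol receptor LXR beta and pairs with RXRs, followed Rarg with 63.21 and 63.7 TPM. Nr2f2 and Nr2f1, the COUP-TF genes, stood at 53.9 and 45.7 TPM on average. Rxrb, Rara and Rarb took ranks 6 to 8, Rxra 12 and Rxrg 21.

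**Figure D3:**
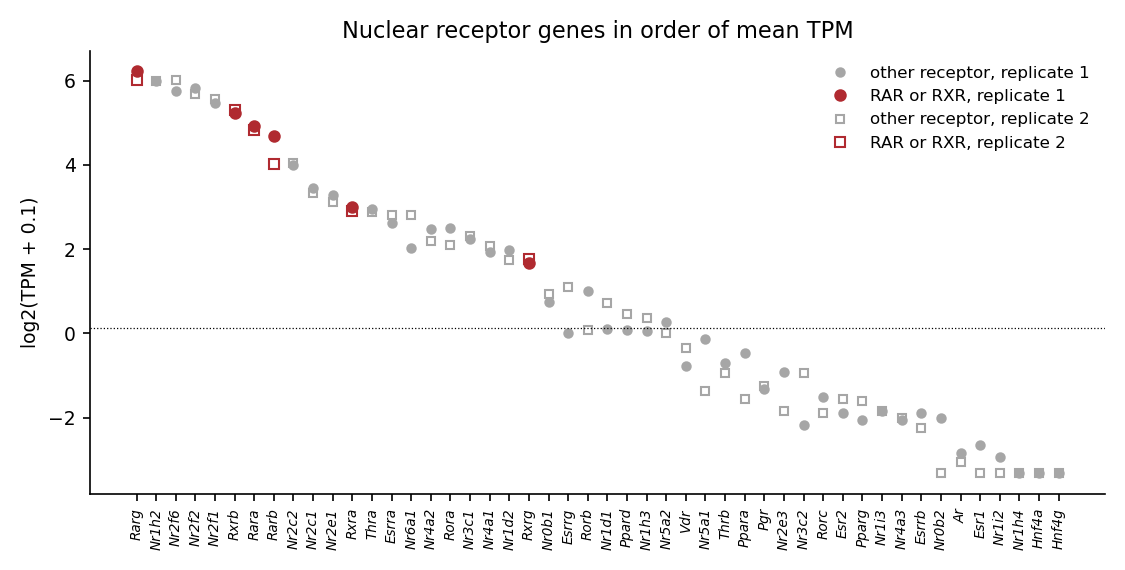
The 48 listed nuclear receptor genes in order of mean TPM, on the log2(TPM + 0.1) scale. Filled circles mark replicate 1, open squares replicate 2 and red the RAR and RXR genes. The dotted line is 1 TPM. All 6 RAR and RXR genes lay above it, and 26 of the 48 genes did not reach it in both libraries.

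The deposited shares divided several receptor genes among transcript models with different annotated starts. Use of the starts themselves was not measured. In Rara, 4 transcripts that share the coding sequence of Rara-204 held 73.12% of the gene's TPM in replicate 1 and 70.25% in replicate 2. Rara-202, whose start lies 22714 bases farther downstream, held 26.87% and 28.75%. Each coding form kept nearly the same share in both pools. Within the upstream group the division differed between the pools: Rara-203 held 35.04% and 17.26%, and Rara-204, which starts 9880 bases downstream of it, 36.91% and 50.38%.

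Rarg was divided more evenly. Rarg-201 took 54.5% of the gene's TPM in replicate 1 and 45.35% in replicate 2, and Rarg-202, with a start 11017 bases downstream, 37.19% and 43.43%. In TPM the upstream form had 40.97 and 29.23, and Rarg-202 had 27.95 and 27.99. The log2 difference between the forms was 0.55 and 0.06, so neither form can be called the more abundant beyond the spread between pools.

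For Rxrb the leading transcript was Rxrb-202, at 50.1% and 50.44% of the gene's TPM. Rxrb-201, which starts 589 bases upstream and holds the 330 and 12 further coding bases given above, took 41.85% and 37.51%. Rxrb-202 was higher in both pools. Retained intron and other models took the remaining 8.05% and 12.06%. Rxra came almost wholly from Rxra-201, with 100% and 96.59%.

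Rxrg was the only gene of the 9 whose leading transcript differed between libraries. Rxrg-201 held 70.43% of its TPM in replicate 1 and 8.35% in replicate 2, and Rxrg-203 held 0% and 75.01%. Their starts lie 96 bases apart and their coding sequences are the same. Summed with Rxrg-204, this coding form held 91.7% and 88.38%, and Rxrg-202, which starts 19925 bases downstream of Rxrg-201, held 8.31% and 11.62%. The switch was thus between models of 1 protein at a gene with 154 and 160 counts.

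**Figure D4:**
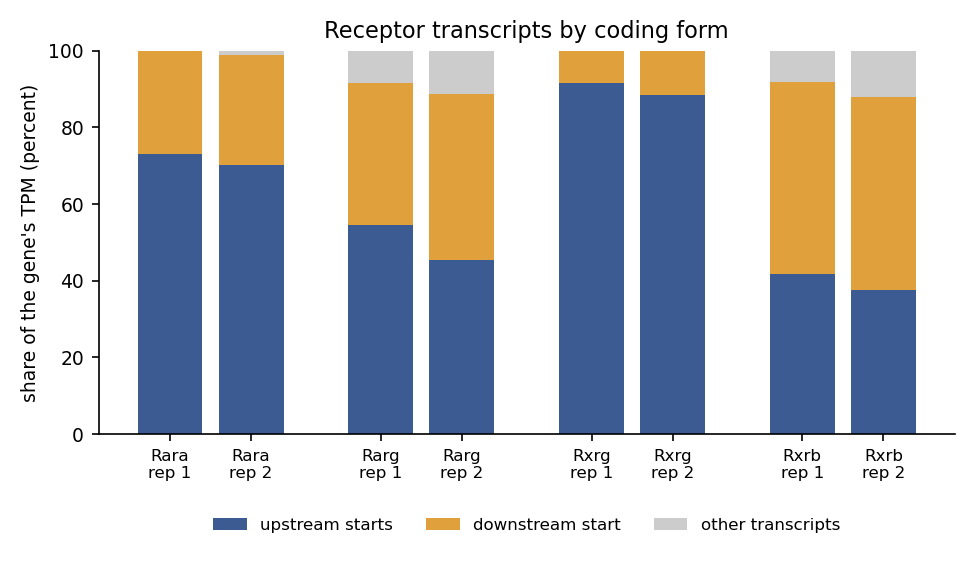
Share of each receptor gene's TPM, in percent, as a stacked bar for each library. Blue marks transcript models that start upstream, orange the model that starts downstream and grey other annotated transcripts. The blue and orange models of Rxrb also differ by 12 bases inside the coding sequence. Upstream forms held over 70% in Rara and over 88% in Rxrg, and Rarg and Rxrb were divided more evenly.

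Of the 7 members with 2 or more transcripts, 6 had the same leading transcript in both libraries. The share was 93.8% among the 7738 genes that averaged 5 TPM or more and had 2 or more transcripts, a set that leaves out Rxrg at its mean of 3.2 TPM. The 6 members within that set all had the same leading transcript. Stra6 was led by a transcript of 2871 bases, with 37.11% and 49.05%. Together, the 4 Stra6 transcripts of the full coding sequence held 85.03% and 87.56%, of which the shortest, at 2725 bases, had 14.18% in replicate 1 and 2.69% in replicate 2. Crabp1 and Rarb each had 1 transcript in the tables, but M21 lists 7 for Rarb, so its forms could not be told apart here. The coding transcript of Crabp2 held 99.61% and 99.44%. These shares are estimates from reads that mostly fall on shared exons, and counting error for them was not computed.

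Between the pools, 5 of the 9 genes were lower in replicate 2 and 4 were higher, beside 49% lower among the 14121 genes that averaged 50 or more counts. None of the 9 was at least 2-fold apart after TMM scaling of the counts, beside 1.25% of those genes, and none was lower by that much, beside 0.687%. Rarb had the largest difference, a log2 ratio of replicate 2 over replicate 1 of -0.64, and 3.77% of genes were at least as far apart in either direction. Stra6 followed at -0.41 (8.6% of genes as far apart) and Rarg at -0.24 (19.2%). Crabp1 and Crabp2 were each higher by 0.23, and 20.2% and 20.1% of genes were as far apart. Rxrb, Rara, Rxra and Rxrg lay between -0.11 and 0.09. The percentages above do not match genes by level. The median absolute log2 ratio was 0.232 for the 9 members and 0.093 for genes averaging 50 or more counts. The log2 TPM ratios were also scaled by the replicate spread of a difference, estimated from the 200 genes closest in level. Scaled values were -4.38 for Rarb, -2.51 for Stra6, -2.01 for Rarg, 2.36 for Crabp2 and 2.19 for Crabp1. Those of Rara, Rxra, Rxrg and Rxrb lay between -0.76 and 0.49. How many of all genes had scaled values as large is not given, so the scaled values have no background. The deposited credibility bounds of the 2 libraries did not overlap for 4 genes, Crabp1, Crabp2, Stra6 and Rarb. The share of all genes without overlap was not computed, so this count has no background. The bounds can also leave out the TPM used here: for Crabp1 in replicate 1 they ran from 1093.2 to 1123.1, below its 1132.61 TPM. Those bounds cover the estimation of the level within a library and not the spread between embryos.

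**Figure D5:**
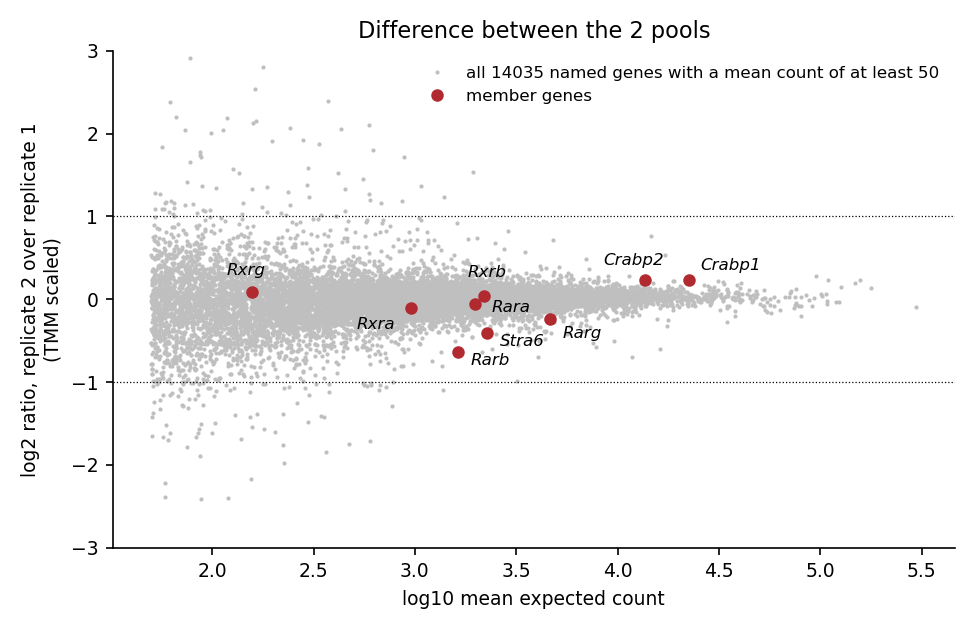
Log2 ratio of replicate 2 over replicate 1 after TMM scaling, against the log10 mean expected count, for named genes averaging 50 or more counts (grey) and the 9 members (red). Dotted lines mark a 2-fold difference, which none of the 9 reached, and 7 of the 14035 genes plotted lie beyond the axis.

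Markers of some neighbouring tissues also moved between the pools. Neuronal, surface ectoderm, endothelial and erythroid markers had median log2 ratios of 0.07, 0.09, 0.02 and 0.09, and none was at least 2-fold apart. Of the neural tube and hindbrain list, 7 of 10 genes were detected, with a summed level of 206 TPM in replicate 1 and 291 in replicate 2, and 8 of the 9 with enough counts for a ratio were higher in replicate 2. Eye markers, 5 of 6 detected, summed to 32.4 and 26.2 TPM, and all 6 were lower in replicate 2. Heart markers summed to 2.65 and 8.78 TPM with none of 5 detected, but Myh7 and Tnnt2 exceeded 1 TPM in replicate 2, at 3.94 and 3.69. Myh7, Tnnt2 and Myh6 were at least 2-fold higher in replicate 2 (log2 ratios 2.39, 2.05 and 2.38), and Nkx2-5 was lower (-0.58). No marker of the neural tube and hindbrain, eye and heart lists was at 0 in both libraries. Of 6 skeletal muscle precursor markers 4 were detected, with sums of 25.6 and 29.7 TPM, and 4 were lower and 2 higher in replicate 2. Among these muscle markers, Myog (log2 ratio -2.22) and Myod1 (-1.64) were at least 2-fold apart and under 1 TPM in replicate 2. Actc1 (1.07) was at least 2-fold apart in the opposite direction. Facial mesenchyme markers had a median log2 ratio of -0.07, with 5 lower and 5 higher in replicate 2. They ranged from -0.7 for Alx1 to 0.13 for Msx1. Their part in the member differences was not tested. In a bulk sample fewer cells of a type and less RNA per cell cannot be told apart.

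The genes that act before and after the receptors were taken from pathway lists. Of 7 genes of retinoid uptake and storage, 2 were detected, among them Ttr (4.72 and 5.08 TPM). Lrat, which esterifies retinol for storage, was lowest at 0.04 TPM in each library. Of 7 genes of retinoic acid synthesis, 5 were detected. Aldh1a3, a retinaldehyde dehydrogenase gene, led with 33.46 TPM in replicate 1 and 39.28 in replicate 2. Aldh1a2 stood at 6.41 and 3.44 TPM and Aldh1a1 at 11.06 and 2.99 TPM. Both were lower in replicate 2, by log2 ratios of -0.87 and -1.85, whereas Aldh1a3 was higher. Rdh10, which makes retinaldehyde from retinol, stood at 7.87 and 6.2 TPM, and Dhrs3, which acts in the reverse direction, at 25.44 and 18.4 TPM. Dhrs9 had no count in either library, and the upper 95% confidence bound for a count of 0 is about 3 counts.

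All 3 CYP26 genes were detected. Cyp26a1 was level between the pools, at 21.86 and 21.47 TPM. Cyp26b1 stood at 4.96 and 12.53 TPM, a log2 ratio of 1.37, and Cyp26c1 at 3.59 and 4.95 TPM. Crabp1 was above every gene of synthesis and breakdown in both libraries, and so was Crabp2.

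Cofactors of the receptors were detected without exception, 7 of 7 corepressor genes and 8 of 8 coactivator genes. Hdac3, the histone deacetylase of the corepressor complex, was highest among the former with 146.25 and 140.61 TPM, followed by Ncor1 with 121.3 and 114.43, and Tbl1xr1 was lowest with 13.55 and 14.05. Among coactivators, Med1 of the Mediator complex led with 70.1 and 71.16 TPM and the arginine methyltransferase gene Carm1 followed with 60.81 and 69.45. Ncoa1 was lowest with 1.44 and 1.32 TPM. No cofactor gene was 2-fold apart between the pools.

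Of 13 listed target genes of retinoic acid, 11 were detected. Meis2, a homeobox gene, was highest with 56.7 and 60.14 TPM and Nr2f2 next with 56.88 and 50.98, and Cdx1 was lowest with 0.23 and 0.37. Hoxb1 (1.03 and 5.91 TPM) and Hoxb2 (4.92 and 14.21 TPM) were over 2-fold higher in replicate 2. Both are also among the hindbrain markers above. Of 13 genes of other RXR partners, 4 were detected, led by Nr1h2 and then Thra, a thyroid hormone receptor gene (7.67 and 7.34 TPM), and Nr1h4 had no count. Of 29 other listed nuclear receptor genes, 12 were detected, and Hnf4a and Hnf4g had no count in either library.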

How the data were processed

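Total RNA-seq was deposited for 2 pools of mouse facial prominence at embryonic day 10.5, which the labels give as biological replicates, and each library was a sample. Expected counts per gene were estimated by the authors and are not normalized. TPM values per gene and transcript were scaled by the authors over all 69691 features. Transcript shares were deposited as percent of the gene's TPM. The accompanying notes name mm10 and GENCODE M4, and no aligner or quantifier is given in the sources used here. Symbols, coordinates and transcript sequences came from GENCODE M21 on GRCm38, matched by identifier without version, and promoters from RefSeq (GRCm38.p6).

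Genes with symbols numbered 42462. Library sizes used Ensembl genes only. Expected counts were rounded, TMM factors (edgeR 4.0.16) came from genes averaging 10 or more counts, and ratios used a prior count of 2. Pairs of genes were compared on log2(TPM + 0.1), with a 95% interval from the replicate SD of the nearest 200 genes. Genes of a pair were said to differ where 0 lay outside this interval and the sign was the same in each library. The ratio calculation was checked on simulated counts. With 1 group there was no contrast, and no p-value was computed.

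The members and lists were chosen by symbol and role, with earlier results of these data known. Named were all 9 members, the 2 highest and the lowest gene of each list, and detected genes of synthesis and breakdown. Nr2f1, Fabp3, Fabp7, Hoxb1, Hoxb2, Actc1, Myod1, Myog, Bco1 and Top2b were named after their values were seen. The result of 1 gene that the rule takes is not reported here. No gene was named for likeness of pattern, because 2 libraries of 1 group hold none. Alternatives were other scalings (DESeq2 1.42.0 size factors, library total, deposited TPM), pseudocounts, thresholds, posterior mean estimates and each library alone.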

Additional observations from a re-analysis of the deposited data

How the results depend on the processing

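The order of the 9 levels was kept under posterior mean TPM and under TPM rescaled to protein coding genes, and 7 of 9 places in each library alone. All 10 differing pairs kept their sign. Rara minus Rarb lost its call in replicate 1 alone (0.22 without replicate 2, 0.79 without replicate 1). Rxrb minus Stra6 went from -0.09 without replicate 2 to 0.48 without replicate 1, and Stra6 minus Rara from -0.01 without replicate 1 to 0.40 without replicate 2. Under posterior mean TPM, Stra6 minus Rara was called at 0.23. The cause was not tested. The mean RAR over RXR ratio was 2.01 without Rarb, and 2.18 and 2.71 in single libraries. At a threshold of 5 TPM in place of 1, the detected members fell from 9 to 8. Detected coactivators fell from 8 to 6 and target genes from 11 to 9, and all 7 corepressors stayed detected. Detected genes numbered 1 for uptake and storage, 3 for synthesis, 1 for breakdown, 2 for RXR partners and 7 for other nuclear receptors. Pseudocounts of 0.01 and 1 TPM, DESeq2 size factors and library totals changed no call of a pair or member. At 1 TPM the intervals of Rxrb minus Stra6 (0.01 to 0.38) and Stra6 minus Rara (0.02 to 0.37) left out 0. Both stayed uncalled because the sign differed between the libraries. With library totals, 181 of all genes were at least 2-fold apart between the pools, against 176. The deposited TPM gave log2 ratios of 0.20 for Crabp1 and -0.50 for Stra6. No paired analysis was possible because there was only 1 group. Depth limited Rxrg most, with 154 and 160 counts.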

Other observations

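The search of promoter windows also covered genes of the pathway lists. Of those outside the 9 members, Cyp26a1, the first of the retinoic acid breakdown genes, held a direct repeat spaced by 5 bases, as did Rarb. The other match among these genes was a repeat spaced by 1 base at Bco1, of the synthesis list, at bases -56 to -44 from its RefSeq start, and Bco1 was not detected (0.19 and 0.27 TPM). The Cyp26a1 match lay at bases -32 to -16 from the RefSeq start, on the strand opposite the gene, and is shown on the gene's own strand at chr19:37697770-37697799 (GRCm38.p6) with the repeat and its spacer in capitals:
Cyp26a1: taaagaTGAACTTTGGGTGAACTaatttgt
Cyp26a1 and Rarb, which share this feature with 29 other genes, stood at 21.86 and 25.83 TPM in replicate 1 and at 21.47 and 16.24 TPM in replicate 2. Their log2 ratios of replicate 2 over replicate 1 were 0.00 and -0.64.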
